A study of Mus musculus with 8 samples.

Results

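The mitotic program of mouse embryonic stem cells (ESCs) was followed through 41 genes that act from late G2 to the end of cell division, of 30175 gene names on the array. They were taken by name, as every non-control array feature that carries one of the 41 gene symbols (59 of 39429 features), and were sorted by the step at which they act: 10 for entry into mitosis, 13 for the spindle and kinetochore, 9 for the spindle checkpoint and chromosomal passenger complex and 9 for mitotic exit and cytokinesis. RNA was measured in E14 cells, an ESC line grown without feeder cells on gelatin with serum and the cytokine LIF, 72 hours after infection with lentivirus that carried short hairpin RNAs. The 4 groups of 2 biological replicates (A and B) were control KD (knockdown; a hairpin against EGFP), Tip60 KD, Hdac6 KD and double KD, which received hairpins against both genes. Tip60, encoded by Kat5, is the acetyltransferase of the Tip60-p400 chromatin complex, Hdac6 is a class II deacetylase, and the comparisons ask how the loss of either or both changes the expression of these genes. All groups share the infection. Each target was depleted with 1 hairpin, chosen by the study for its efficiency, so that effects of the hairpin other than on its target cannot be told apart from those of the knockdown.

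Entry into mitosis is driven by Cdk1 bound to A- and B-type cyclins, whose inhibitory phosphates are removed by the Cdc25 phosphatases. The spindle is then built by kinesins and microtubule-binding proteins, and the checkpoint holds back the anaphase-promoting complex until every kinetochore is attached. Destruction of securin and the cyclins starts anaphase, after which the midzone and the contractile ring divide the cell. RNA of most of these genes peaks in G2 and mitosis, through promoter elements known as the CHR (cell cycle genes homology region) and CCAAT boxes, and ESCs, which cycle fast, contain much of it.

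Levels are given as log2 of the background-subtracted signal over the 75th percentile of its array, so that 0 is the level of a feature at that percentile, with the values of replicates A and B in that order. A gene is called changed at a Benjamini-Hochberg adjusted p under 0.1 in limma, fitted over 18116 genes and all 8 arrays. The targets themselves were depleted: Kat5 was left at 39.2% of its control KD level in Tip60 KD and 40.4% in double KD, and Hdac6 at 17.8% in Hdac6 KD, 27.3% in double KD and 73.9% in Tip60 KD. Arrays of the same replicate letter shared a slide and a scan, and a group held the same position on both slides, so that position and group cannot be told apart. A fit with the slide as a block was made as well. Its adjusted p follows that of a printed change of a gene wherever it lies on the other side of the threshold. The arrays differed in the median background subtracted (37.2 to 114) and in the spots well above background (21896 to 40609 of 43020). On both slides control KD had the highest background subtracted (61.0 in A and 114 in B) and the fewest such spots (31179 and 21896). This difference therefore goes with every comparison against control KD. All 41 members passed the filter on dim signal. Cenpf lay at the floor, the lowest level reported (-2.71), on 5 arrays, and Aurkb on 1.

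The bases upstream of a few members are shown, since CHR and CCAAT letters are what these promoters are known for and many of the members moved together. RefSeq promoters (build GRCm38.p6, 250 bases before to 50 after the start) were given for 35 of the 41 members, 38 promoters in all. TTTGAA or its reverse complement TTCAAA stood in 27 of the 38 (71.1%), against 17.9% of all 32851 promoters of that length. The palindrome TTTAAA stood in 10 (26.3%, against 13.2% of all), and CCAAT or its reverse complement ATTGG in 29 (76.3%, against 37.4%). A CHR-like hexamer together with CCAAT was found in 26 (68.4%), against 3525 of the 32851. In 1 of the 38, letters of different motifs shared bases, and 4 held none of these motifs. By gene, 13 of the 16 members with a promoter here that fell in Tip60 KD held 1 of the hexamers, as did 14 of the 17 that were not called. Each sequence is the 120 bases before the start, 5′ to 3′, with these motifs in capitals. The first 5 members fell in Tip60 KD and, as printed, hold TTTGAA or TTCAAA 14 to 33 bases before the start. Of the 2 promoters of Prc1, the one with more motifs within the printed bases is shown. In the other, TTTGAA stands 5 bases before the start and CCAAT 37.
Ccnf (chr17:24251410-24251529, minus strand): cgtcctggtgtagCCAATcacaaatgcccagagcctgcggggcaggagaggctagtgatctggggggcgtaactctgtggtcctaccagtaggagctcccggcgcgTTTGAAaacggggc
Kif11 (chr19:37376262-37376381, plus strand): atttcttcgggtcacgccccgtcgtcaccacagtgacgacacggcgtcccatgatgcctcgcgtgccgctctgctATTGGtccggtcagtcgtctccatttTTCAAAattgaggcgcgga
Gpsm2 (chr3:108722300-108722419, minus strand): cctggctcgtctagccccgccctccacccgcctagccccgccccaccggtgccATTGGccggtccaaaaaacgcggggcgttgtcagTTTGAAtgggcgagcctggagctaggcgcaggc
Prc1 (chr7:80294356-80294475, plus strand): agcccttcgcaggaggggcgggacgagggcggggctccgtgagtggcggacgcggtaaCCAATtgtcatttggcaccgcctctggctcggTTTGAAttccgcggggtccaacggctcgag
Cdc20 (chr4:118437344-118437463, minus strand): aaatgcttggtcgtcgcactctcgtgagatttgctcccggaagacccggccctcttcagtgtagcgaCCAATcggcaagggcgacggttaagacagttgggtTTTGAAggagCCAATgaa

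Pttg1 and Nusap1, which were among the members of largest decrease, hold none of the motifs in the whole window. Cdc25b and Kif2c were the members that rose in Tip60 KD. Within the printed bases, the former holds ATTGG 28 bases before the start and the latter TTCAAA 103 bases before it.
Pttg1 (chr11:43425982-43426101, minus strand): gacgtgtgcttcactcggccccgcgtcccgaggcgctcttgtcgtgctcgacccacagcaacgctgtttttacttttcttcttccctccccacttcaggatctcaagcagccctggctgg
Nusap1 (chr2:119618178-119618297, plus strand): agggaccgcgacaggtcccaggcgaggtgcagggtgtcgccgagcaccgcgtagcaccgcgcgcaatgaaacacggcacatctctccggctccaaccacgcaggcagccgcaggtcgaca
Cdc25b (chr2:131186828-131186947, plus strand): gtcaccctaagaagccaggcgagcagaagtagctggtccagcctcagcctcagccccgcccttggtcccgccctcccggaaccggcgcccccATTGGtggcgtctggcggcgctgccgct
Kif2c (chr4:117178773-117178892, minus strand): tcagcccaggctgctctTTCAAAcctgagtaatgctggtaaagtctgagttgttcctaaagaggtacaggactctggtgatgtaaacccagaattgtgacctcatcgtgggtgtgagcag

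Tip60 KD lowered the RNA of these genes as a group. Of the 41 members, 23 were called, 21 lower and 2 higher, led by the decreases of securin (Pttg1, 46.0% of the control level) and the spindle orientation gene Gpsm2 (47.3%), while Cdc25b and the kinesin gene Kif2c rose. Over all genes tested, 39.7% were called, 20.0% lower and 19.7% higher, so that the members were called lower in 51.2% against 20.0%. The members were chosen with earlier results of these data known, so that these shares describe the list and are no independent test of it. Their median log2 change was -0.30, beside 0.06 over all genes, and 29 of the 41 were lower than control KD on both slides (70.7%, against 34.7% of all genes). Decreases were seen at every step: 5 of 10 entry genes, 5 of 13 spindle genes, 4 of 9 checkpoint genes and 7 of 9 exit genes fell. In bulk RNA, fewer cells in G2 and mitosis and less RNA of these genes per cell cannot be told apart. Without any 1 of the 8 arrays, 16 to 23 members were called, and 14 of the 23 kept their call each time: Ccna2, Ccnb2, Ccnf, Cdc25b, Kif11, Kif2c, Nusap1, Gpsm2, Bub1, Birc5, Cdca8, Pttg1, Prc1 and Anln. Each of these fits leaves 1 array in a group, and each also called a smaller share of all genes than the main fit. The count of members called was 13 with normexp background correction, where 14.7% of all genes were called. It was 5, all lower, with arrays scaled to their median signal, where 10.2% of all genes were called. With the slide as a block, 33 members were called (60.8% of all genes).

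Double KD lowered the members in like number. In it, 20 members were called, 19 lower and 1 higher, where 32.8% of all genes were called, 16.9% lower and 15.9% higher. The median log2 change of the members was -0.39, beside 0.05 over all genes, and 33 of the 41 lay below control KD on both slides (80.5%, against 34.5%). By step, 6 of 10 entry genes, 6 of 13 spindle genes, 4 of 9 checkpoint genes and 3 of 9 exit genes fell. The count dropped to 12 without control KD A, 13 without control KD B and 13 without double KD B, and 9 of the 20 members kept their call without any 1 array: Ccnf, Top2a, Plk4, Nusap1, Gpsm2, Cenpa, Bub1, Cdca8 and Pttg1. A smaller share of all genes was also called in each fit without 1 array. The count of members called was 5 with normexp background correction, 4 with arrays scaled to their median and 10 with the authors' normalised values. Of all genes, 8.48%, 4.68% and 8.86% were called in these settings. The 3 knockdowns were compared with the same control arrays. The slide block raised the count to 34 (55.4% of all genes).

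In Hdac6 KD the members were called about as often as all genes, but a larger share of them lay below control KD on both slides. There, 11 were called (26.8%), 7 lower and 4 higher (all genes: 28.9% called, 14.9% lower and 14.0% higher), and the median log2 change was -0.10, beside 0.03 over all genes. The members' median was below that of all genes in every setting but that without Hdac6 KD B (-0.0015 beside -0.0028). The gap was smaller with quantile normalisation (-0.0284 beside 0.0274) and with a trend on signal level removed (-0.0223 beside 0.0081). On both slides 24 of the 41 members were lower than control KD (58.5%, against 35.2% of all genes). Among the members called, Pttg1, Bub1, Prc1, Cdca8, Nusap1, Ccna2 and Cenpa fell, and Cdc25b, Ube2c, Nek2 and Cenpe rose. None of these 11 calls held in all 8 limma fits without 1 array, each of which leaves 1 array in a group. Those fits also called a smaller share of all genes than the main fit. With the slide as a block, 20 members were called, 15 lower and 5 higher (52.9% of all genes called).

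**Figure D1:**
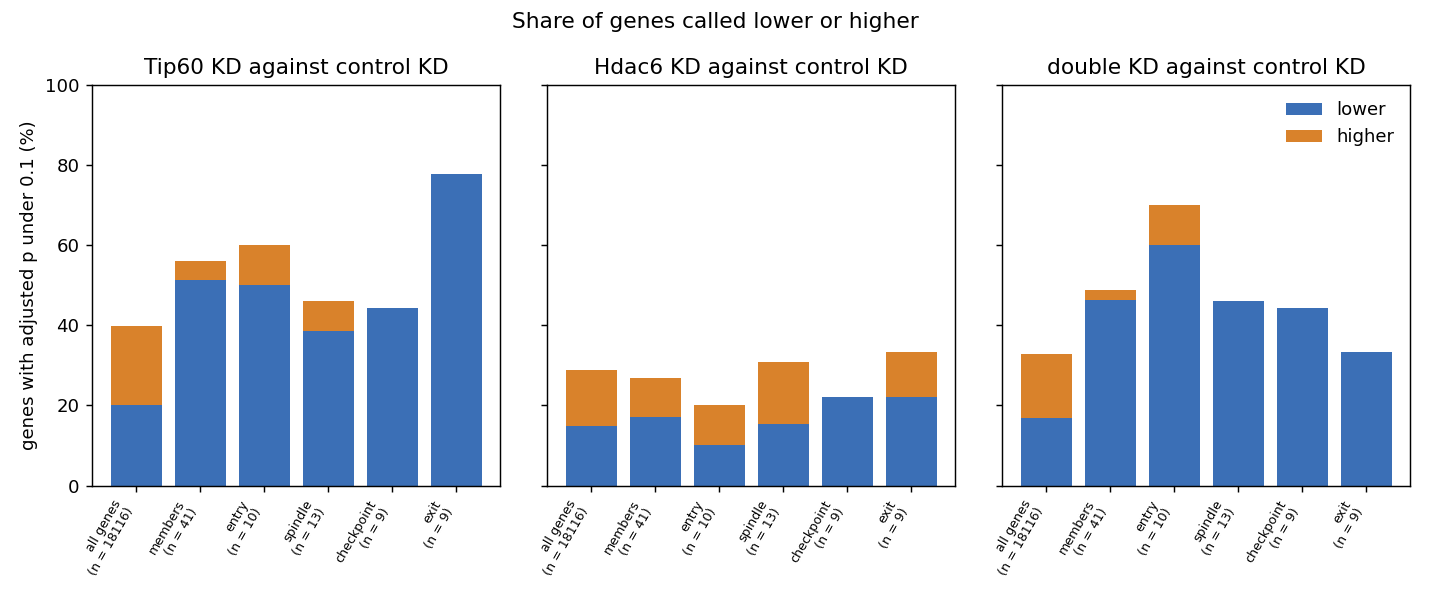
Percent of genes called lower (blue) or higher (orange) at an adjusted p under 0.1 in each knockdown against control KD, for all 18116 genes tested, the 41 members and the members of each step. In Tip60 KD and double KD the blue part is larger for the members (51.2% and 46.3%) than for all genes (20.0% and 16.9%), while in Hdac6 KD the bars of the members and of all genes are of like height (26.8% and 28.9%).

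Among the genes of mitotic entry, the cyclins fell in Tip60 KD, except Ccnb1. Ccnb2, a B-type cyclin, lay at 4.24 and 4.25 (control KD), 3.62 and 3.55 (Tip60 KD), 3.89 and 4.11 (Hdac6 KD) and 3.59 and 3.78 (double KD). All 4 arrays of Tip60 KD and double KD were below both control arrays, and the log2 change was -0.65 ± 0.11 (SE, adjusted p = 0.00741) in Tip60 KD and -0.56 ± 0.11 (SE, adjusted p = 0.0171) in double KD, against -0.24 ± 0.11 (SE, adjusted p = 0.187, or 0.0761 with the slide as a block) in Hdac6 KD. The call in double KD was lost without control KD B (adjusted p = 0.102). Ccna2, the A-type cyclin of S phase and G2, was measured at 3.70 and 3.60 (control KD), 3.16 and 3.04 (Tip60 KD), 3.43 and 3.30 (Hdac6 KD) and 3.26 and 3.12 (double KD). It was below control KD on every knockdown array and fell by 0.55, 0.28 and 0.46 on the log2 scale in Tip60, Hdac6 and double KD (adjusted p = 0.00879, 0.0968 and 0.0217). The call in Hdac6 KD was lost without any 1 of the 8 arrays, and that in double KD without control KD A or double KD B (adjusted p = 0.11 and 0.103). Ccnf, whose F-box protein marks proteins for destruction in G2, changed by -0.46 (adjusted p = 0.0117) in Tip60 KD and -0.49 (adjusted p = 0.0131) in double KD.

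The kinase at the centre of entry did not pass the test without the slide as a block, and passed it with the block in all 3 knockdowns. Cdk1 had levels of 3.41 and 3.07 (control KD), 3.17 and 2.71 (Tip60 KD), 3.16 and 2.68 (Hdac6 KD) and 3.22 and 2.76 (double KD). On each slide the 3 knockdown arrays were below the control array, but the A and B arrays of a group lay farther apart than the groups did, and the groups overlapped. The log2 differences were -0.30 ± 0.26 (SE, adjusted p = 0.462, or 0.00908 with the slide as a block), -0.32 ± 0.26 (SE, adjusted p = 0.476, or 0.00987 with the slide as a block) and -0.25 ± 0.26 (SE, adjusted p = 0.567, or 0.0202 with the slide as a block) in Tip60, Hdac6 and double KD. Ccnb1, the main B-type cyclin, stood at 3.84 and 3.79 (control KD), 3.67 and 3.56 (Tip60 KD), 3.89 and 3.97 (Hdac6 KD) and 3.74 and 3.67 (double KD), with Tip60 KD and double KD below both control arrays. Its log2 differences were -0.20 (adjusted p = 0.112, or 0.0457 with the slide as a block), 0.12 (adjusted p = 0.384) and -0.11 (adjusted p = 0.381) in Tip60, Hdac6 and double KD. Aurka, the kinase of the centrosomes, read 2.25 and 2.07 (control KD), 2.33 and 1.87 (Tip60 KD), 2.41 and 2.17 (Hdac6 KD) and 2.38 and 2.02 (double KD). Its groups overlapped, and no change passed the test (-0.06, 0.13 and 0.04, with adjusted p = 0.866, 0.732 and 0.927).

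Plk1, the polo kinase that helps to start mitosis, gave 2.62 and 2.49 (control KD), 2.20 and 2.17 (Tip60 KD), 2.55 and 2.48 (Hdac6 KD) and 2.12 and 2.20 (double KD). Tip60 KD and double KD lay below the other groups with no overlap, with log2 changes of -0.37 ± 0.08 (SE, adjusted p = 0.0205) and -0.39 ± 0.08 (SE, adjusted p = 0.0223) against -0.04 (adjusted p = 0.824) in Hdac6 KD. The first call was lost without control KD A (adjusted p = 0.107), the second without control KD A or double KD A (adjusted p = 0.112 and 0.1). Among the phosphatases that activate Cdk1, opposite directions were seen: Cdc25c changed by -0.44 (adjusted p = 0.0321) in Tip60 KD and -0.48 (adjusted p = 0.0304) in double KD, while Cdc25b rose in every knockdown. The Cdc25c calls were lost in Tip60 KD without any 1 of the control KD and Tip60 KD arrays (adjusted p = 0.104 to 0.142) and in double KD without control KD A, control KD B or double KD B (adjusted p = 0.111 to 0.139). Cdc25b (mm9 chr2:131023911-131023970) lay at -0.95 and -0.79 (control KD), -0.10 and -0.24 (Tip60 KD), -0.58 and -0.46 (Hdac6 KD) and -0.47 and -0.38 (double KD). Its 2 control arrays were the lowest and its 2 Tip60 KD arrays the highest of the 8, with changes of 0.70 ± 0.10 (SE, adjusted p = 0.00437), 0.35 ± 0.10 (SE, adjusted p = 0.0608) and 0.44 ± 0.10 (SE, adjusted p = 0.0263). The call in double KD was lost without control KD A or double KD B (adjusted p = 0.127 and 0.117), and that in Hdac6 KD without any 1 of the control KD and Hdac6 KD arrays (adjusted p = 0.125 to 0.265).

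Top2a, the enzyme that untangles sister chromatids, behaved differently from Ccna2, Ccnb2 and Ccnf, which fell in both Tip60 KD and double KD. Its levels were 3.84 and 3.79 (control KD), 3.75 and 3.93 (Tip60 KD), 3.66 and 3.72 (Hdac6 KD) and 3.24 and 3.41 (double KD). The double KD arrays were the lowest and Tip60 KD overlapped control KD, with a log2 change of -0.49 ± 0.10 (SE, adjusted p = 0.019) against control KD, beside 0.03 (adjusted p = 0.894) in Tip60 KD and -0.13 (adjusted p = 0.446) in Hdac6 KD.

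**Figure D2:**
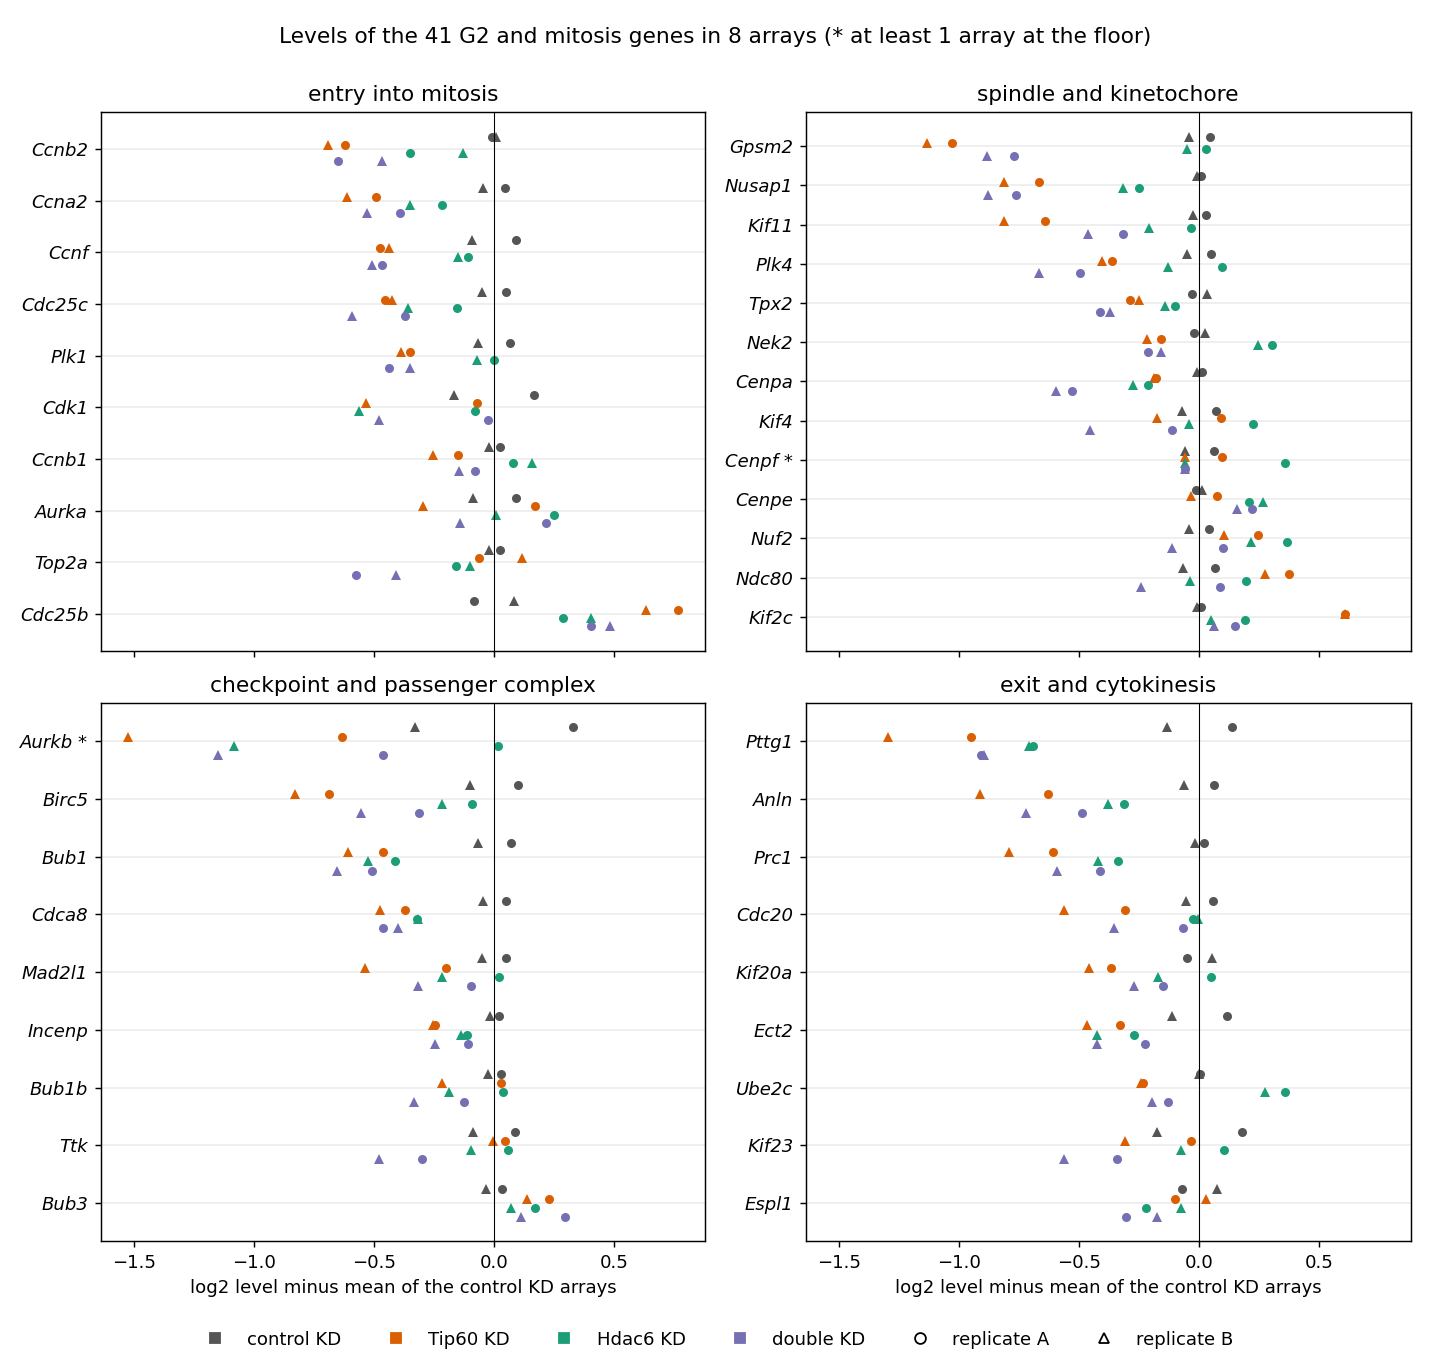
Log2 level of each of the 41 members on the 8 arrays, minus the mean of the 2 control KD arrays, by step; circles are replicate A and triangles replicate B, and an asterisk marks genes with at least 1 array at the floor. Most orange (Tip60 KD) and purple (double KD) points lie left of 0, with Pttg1 and Gpsm2 farthest left among members above the floor, and Cdc25b and Kif2c lie to the right in Tip60 KD.

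Among the spindle genes, Gpsm2, Nusap1, Kif11, Plk4 and Tpx2 fell in both Tip60 KD and double KD, and Kif2c rose in Tip60 KD. Gpsm2, whose protein links astral microtubules to the cell cortex and orients the spindle, had a feature at mm9 chr3:108482222-108482281 that read 0.96 and 0.87 (control KD), -0.11 and -0.22 (Tip60 KD), 0.94 and 0.86 (Hdac6 KD) and 0.15 and 0.03 (double KD). The 4 arrays with the Tip60 hairpin were well below the other 4, and Hdac6 KD overlapped control KD. The log2 change was -1.08 ± 0.09 (SE, adjusted p = 0.00105) in Tip60 KD (47.3% of the control level) and -0.83 ± 0.09 (SE, adjusted p = 0.00321) in double KD (56.3%), against -0.01 ± 0.09 (SE, adjusted p = 0.958) in Hdac6 KD. Gpsm2 is among the genes that the study picked from these arrays for RT-qPCR, so that its naming here is no independent evidence.

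Nusap1, a microtubule-bundling protein of the spindle (mm9 chr2:119475072-119475131), was measured at 2.80 and 2.79 (control KD), 2.13 and 1.98 (Tip60 KD), 2.54 and 2.47 (Hdac6 KD) and 2.03 and 1.91 (double KD). Every knockdown array lay below both controls, and Hdac6 KD lay between control KD and the other knockdowns. It fell by 0.74 in Tip60 KD and 0.82 in double KD on the log2 scale (adjusted p = 0.0026 and 0.00332), and by 0.29 in Hdac6 KD (adjusted p = 0.0722). The last call was lost without any 1 of the control KD and Hdac6 KD arrays (adjusted p = 0.164 to 0.286). For Kif11, the plus-end motor that keeps spindle poles apart (mm9 chr19:37495755-37495814), the values were 1.74 and 1.68 (control KD), 1.07 and 0.89 (Tip60 KD), 1.67 and 1.50 (Hdac6 KD) and 1.39 and 1.24 (double KD). Tip60 KD was lowest, with a change of -0.73 ± 0.11 (SE, adjusted p = 0.0049), and double KD followed with -0.39 ± 0.11 (SE, adjusted p = 0.0477), a call that was lost without control KD A, control KD B or double KD B (adjusted p = 0.162 to 0.192). In Hdac6 KD, which overlapped neither other knockdown, the change was -0.12 (adjusted p = 0.514).

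Plk4, the kinase of centriole duplication, gave 1.09 and 0.99 (control KD), 0.68 and 0.64 (Tip60 KD), 1.13 and 0.91 (Hdac6 KD) and 0.54 and 0.37 (double KD). Its double KD arrays were the lowest, at -0.58 ± 0.11 (SE, adjusted p = 0.0152) against control KD, and Tip60 KD lay between them and the other groups at -0.38 ± 0.11 (SE, adjusted p = 0.0443). That last call was lost without any 1 of the control KD and Tip60 KD arrays (adjusted p = 0.124 to 0.184). Tpx2, which activates Aurka on the spindle, changed by -0.27 (adjusted p = 0.0336) in Tip60 KD and -0.39 (adjusted p = 0.0133) in double KD, calls lost without control KD B or Tip60 KD A (adjusted p = 0.185 and 0.129) and without control KD B (adjusted p = 0.102). Nek2, the kinase that splits the centrosomes, rose in Hdac6 KD by 0.27 (adjusted p = 0.0486), a call lost without any 1 of the control KD and Hdac6 KD arrays (adjusted p = 0.156 to 0.191), with -0.19 (adjusted p = 0.105, or 0.0422 with the slide as a block) in Tip60 KD.

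Against this direction, Kif2c, a kinesin that takes microtubules apart at the kinetochore (mm9 chr4:116832904-116832963), rose in Tip60 KD. The levels were 1.82 and 1.80 (control KD), 2.42 and 2.42 (Tip60 KD), 2.00 and 1.86 (Hdac6 KD) and 1.96 and 1.87 (double KD). Both Tip60 KD arrays stood above the other 6, which lay close together, and the log2 change was 0.61 ± 0.08 (SE, adjusted p = 0.00379), beside 0.12 (adjusted p = 0.383) in Hdac6 KD and 0.11 (adjusted p = 0.43) in double KD. A second Kif2c feature gave log2 differences of 0.59, 0.12 and 0.10 in the same comparisons.

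At the centromere, Cenpa, the histone H3 variant that marks it, read 3.35 and 3.33 (control KD), 3.16 and 3.15 (Tip60 KD), 3.12 and 3.06 (Hdac6 KD) and 2.81 and 2.74 (double KD). All knockdown arrays were below control KD and the double KD arrays lowest, with changes of -0.56 ± 0.07 (SE, adjusted p = 0.00491) in double KD, -0.25 ± 0.07 (SE, adjusted p = 0.0618) in Hdac6 KD and -0.18 ± 0.07 (SE, adjusted p = 0.105, or 0.0296 with the slide as a block) in Tip60 KD. The call in Hdac6 KD was lost without any 1 of the control KD and Hdac6 KD arrays (adjusted p = 0.15 to 0.272). Of the other kinetochore members, Ndc80 and Nuf2, partners in the complex that binds microtubules, did not pass the test, at 0.32 (adjusted p = 0.15, or 0.0143 with the slide as a block) and 0.17 (adjusted p = 0.312, or 0.0484 with the slide as a block) in Tip60 KD. Cenpe, a kinetochore motor, rose in Hdac6 KD by 0.24 (adjusted p = 0.0843), a call lost without any 1 of the 8 arrays, and stood at 0.02 (adjusted p = 0.894) in Tip60 KD. The chromokinesin gene Kif4 passed the test in no knockdown (-0.28 in double KD, adjusted p = 0.297, or 0.0184 with the slide as a block), and Cenpf has no usable change, since 5 of its 8 values lay at the floor.

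In the checkpoint, Bub1 fell in all 3 knockdowns. Bub1, a kinase that loads checkpoint proteins on kinetochores, had levels of 3.97 and 3.84 (control KD), 3.44 and 3.30 (Tip60 KD), 3.49 and 3.38 (Hdac6 KD) and 3.40 and 3.25 (double KD). No knockdown array overlapped control KD, and the log2 changes were -0.54 ± 0.10 (SE, adjusted p = 0.0121), -0.47 ± 0.10 (SE, adjusted p = 0.0278) and -0.58 ± 0.10 (SE, adjusted p = 0.0127). The call in Hdac6 KD was lost without control KD A, control KD B or Hdac6 KD B (adjusted p = 0.101 to 0.148). Bub1b, Bub3 and Mad2l1, which form the inhibitor of the anaphase-promoting complex together with Cdc20, passed the test in no knockdown without the block. In Tip60 KD their log2 differences were -0.09 (adjusted p = 0.666), 0.18 (adjusted p = 0.217, or 0.0407 with the slide as a block) and -0.37 (adjusted p = 0.13, or 0.00789 with the slide as a block). In double KD the slide block put all 9 checkpoint and passenger complex genes past the threshold, 8 lower and 1 higher (55.4% of all genes called). Ttk, the kinase at the top of the checkpoint, changed by -0.39 (adjusted p = 0.0497) in double KD, a call lost without control KD A, control KD B or double KD B (adjusted p = 0.107 to 0.213), beside 0.02 (adjusted p = 0.933) in Tip60 KD.

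The passenger complex, which corrects attachments and later marks the division plane, fell in part. Birc5 (survivin) was measured at mm9 chr11:117716978-117717037 with 4.17 and 3.97 (control KD), 3.38 and 3.24 (Tip60 KD), 3.98 and 3.86 (Hdac6 KD) and 3.76 and 3.52 (double KD). Tip60 KD lay lowest and double KD next, with changes of -0.76 ± 0.12 (SE, adjusted p = 0.00713) and -0.43 ± 0.12 (SE, adjusted p = 0.0544), while Hdac6 KD overlapped control KD at -0.15 (adjusted p = 0.469, or 0.0779 with the slide as a block). The call in double KD was lost without control KD A, control KD B or double KD B (adjusted p = 0.11 to 0.229). The other Birc5 features, which were dimmer, gave 0.09 and -0.03 in Tip60 KD (adjusted p = 0.516 and 0.92), so that the decrease in Tip60 KD rests on 1 of its 3 features. In double KD they fell, at -0.26 and -0.41 (adjusted p = 0.0966 and 0.0931). Cdca8 (borealin) read 3.18 and 3.08 (control KD), 2.76 and 2.65 (Tip60 KD), 2.81 and 2.81 (Hdac6 KD) and 2.66 and 2.73 (double KD). Each knockdown lay below control KD with no overlap, at -0.42 ± 0.08 (SE, adjusted p = 0.0111), -0.32 ± 0.08 (SE, adjusted p = 0.0407) and -0.43 ± 0.08 (SE, adjusted p = 0.0141). The call in Hdac6 KD was lost without any 1 of the control KD and Hdac6 KD arrays (adjusted p = 0.135 to 0.179). Incenp, the scaffold of the complex, changed by -0.25 (adjusted p = 0.0576) in Tip60 KD, a call that was lost without control KD A, control KD B, Tip60 KD A, Tip60 KD B, Hdac6 KD A or Hdac6 KD B (adjusted p = 0.103 to 0.205).

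Aurkb, the kinase of the passenger complex, gave dim and scattered values: -0.86 and -1.52 (control KD), -1.82 and -2.71 (Tip60 KD), -1.17 and -2.27 (Hdac6 KD) and -1.65 and -2.34 (double KD), where -2.71 is the floor. Its A and B arrays differed more than most groups did, and the groups overlapped. The log2 differences of -1.08 ± 0.50 (SE, adjusted p = 0.168, or 0.00107 with the slide as a block), -0.53 ± 0.50 (SE, adjusted p = 0.542, or 0.017 with the slide as a block) and -0.81 ± 0.50 (SE, adjusted p = 0.323, or 0.00388 with the slide as a block) did not pass the test without the block, and the value in Tip60 KD depends on the floor.

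Of the exit genes, 7 fell in Tip60 KD. Pttg1, the securin that restrains separase until anaphase (mm9 chr11:43233801-43233860), lay at 2.49 and 2.22 (control KD), 1.40 and 1.06 (Tip60 KD), 1.66 and 1.64 (Hdac6 KD) and 1.44 and 1.46 (double KD). All 6 knockdown arrays were below both controls, and the A and B arrays differed most in control KD and Tip60 KD. The log2 changes were -1.12 ± 0.14 (SE, adjusted p = 0.00322), -0.70 ± 0.14 (SE, adjusted p = 0.0227) and -0.90 ± 0.14 (SE, adjusted p = 0.00915), which is 46.0%, 61.5% and 53.5% of the control level. The call in Hdac6 KD was lost without control KD A or Hdac6 KD B (adjusted p = 0.104 and 0.109). Espl1, which encodes separase itself, showed -0.04 (adjusted p = 0.842) in Tip60 KD and -0.24 (adjusted p = 0.155, or 0.0122 with the slide as a block) in double KD.

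Cdc20, the activator of the anaphase-promoting complex that the checkpoint inhibits, had values of 4.83 and 4.72 (control KD), 4.47 and 4.21 (Tip60 KD), 4.75 and 4.77 (Hdac6 KD) and 4.71 and 4.42 (double KD). Tip60 KD lay below control KD and Hdac6 KD without overlap, at -0.44 ± 0.13 (SE, adjusted p = 0.0554), and double KD showed -0.21 (adjusted p = 0.329) and Hdac6 KD -0.01 (adjusted p = 0.975). The call was lost without control KD A, control KD B or Tip60 KD B (adjusted p = 0.145 to 0.228). Ube2c, the ubiquitin-conjugating enzyme of the complex, read 2.75 and 2.75 (control KD), 2.51 and 2.50 (Tip60 KD), 3.10 and 3.02 (Hdac6 KD) and 2.62 and 2.55 (double KD). It moved in opposite directions in the single knockdowns, at -0.24 ± 0.07 (SE, adjusted p = 0.0539) in Tip60 KD and 0.31 ± 0.07 (SE, adjusted p = 0.0326) in Hdac6 KD, and double KD lay at -0.16 ± 0.07 (SE, adjusted p = 0.169, or 0.0544 with the slide as a block). These calls were lost in Tip60 KD without any 1 of the control KD and Tip60 KD arrays (adjusted p = 0.148 to 0.201), and in Hdac6 KD without any 1 of the control KD and Hdac6 KD arrays (adjusted p = 0.106 to 0.169).

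Of the midzone and contractile ring genes, Prc1, Kif20a, Ect2 and Anln fell in Tip60 KD and Kif23 did not pass the test. Prc1, which bundles the antiparallel microtubules of the midzone (mm9 chr7:87461048-87461107), was at 3.82 and 3.79 (control KD), 3.20 and 3.01 (Tip60 KD), 3.47 and 3.38 (Hdac6 KD) and 3.39 and 3.21 (double KD). Control KD was highest and Tip60 KD lowest, with changes of -0.70 ± 0.10 (SE, adjusted p = 0.00495), -0.38 ± 0.10 (SE, adjusted p = 0.0519) and -0.50 ± 0.10 (SE, adjusted p = 0.0201). Its call in double KD was lost without control KD B (adjusted p = 0.102), and that in Hdac6 KD without any 1 of the control KD and Hdac6 KD arrays (adjusted p = 0.131 to 0.226). Anln (anillin), a scaffold of the contractile ring (mm9 chr9:22136685-22136744), showed 4.57 and 4.45 (control KD), 3.88 and 3.60 (Tip60 KD), 4.20 and 4.13 (Hdac6 KD) and 4.02 and 3.79 (double KD). Its Tip60 KD and double KD arrays overlapped each other but not control KD or Hdac6 KD, at -0.77 ± 0.13 (SE, adjusted p = 0.00803) and -0.60 ± 0.13 (SE, adjusted p = 0.0238), and Hdac6 KD lay at -0.35 ± 0.13 (SE, adjusted p = 0.125, or 0.0132 with the slide as a block). The call in double KD was lost without control KD A or double KD B (adjusted p = 0.116 and 0.107). The midzone kinesin gene Kif20a and Ect2, the activator of RhoA at the cleavage furrow, changed by -0.41 (adjusted p = 0.031) and -0.40 (adjusted p = 0.059) in Tip60 KD, calls that were lost without control KD B or Tip60 KD B (adjusted p = 0.166 and 0.133) and without control KD A, Tip60 KD A or Tip60 KD B (adjusted p = 0.109 to 0.249). Kif23, another midzone kinesin gene, stood at -0.17 (adjusted p = 0.52, or 0.0708 with the slide as a block) in Tip60 KD and -0.45 (adjusted p = 0.109, or 0.00334 with the slide as a block) in double KD.

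**Figure D3:**
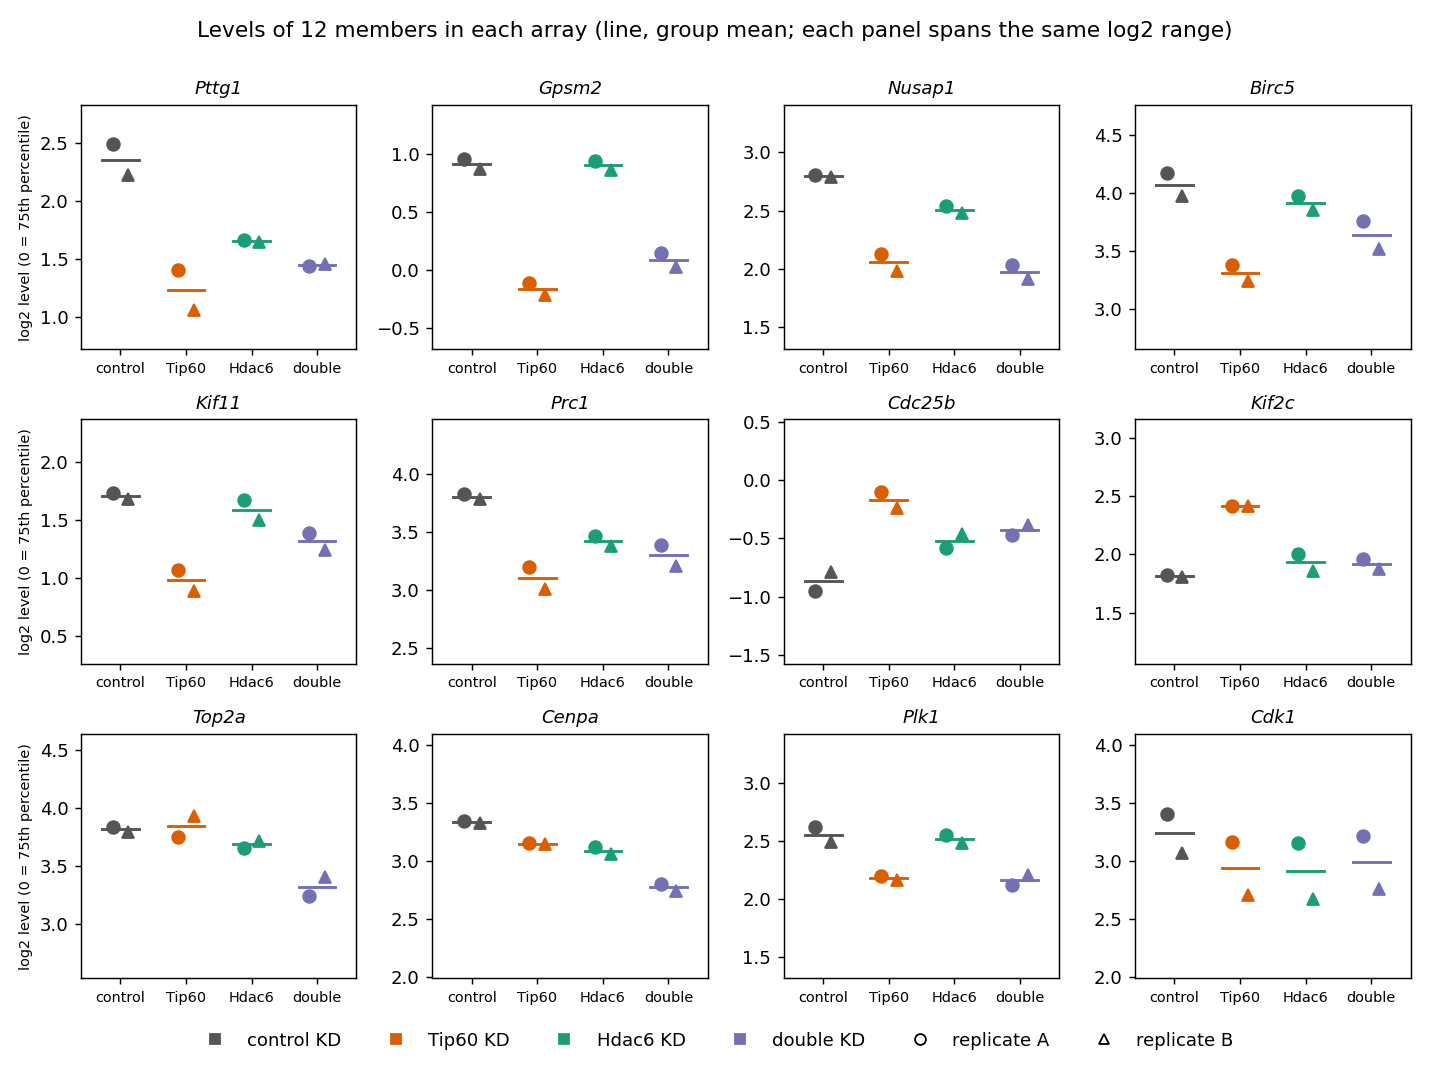
Log2 level (0 is the 75th percentile of the array) of 12 members on each array, with the group mean as a line; circles are replicate A and triangles replicate B, and every panel spans the same log2 range. Gpsm2 is low in Tip60 KD and double KD alone, Pttg1 in all 3 knockdowns, Kif2c is high in Tip60 KD alone and Top2a low in double KD alone, while the replicates of Cdk1 differ as much as its groups.

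The knockdowns were also set against each other, to ask where the loss of both factors differed from the loss of 1. Between double KD and Tip60 KD, 3 members were called, all lower in double KD (7.32%, where 3.71% of all genes were called, 2.56% lower). Top2a differed by -0.52 ± 0.10 (SE, adjusted p = 0.0845), Kif2c by -0.50 ± 0.08 (SE, adjusted p = 0.0731) and Cenpa by -0.38 ± 0.07 (SE, adjusted p = 0.0831). Leaving out any 1 of the 8 arrays left 0 members called, with 5 to 9 at an unadjusted p under 0.05 and at most 0.0677% of all genes called, and the slide block gave 14 (26.2% of all genes).

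More members separated double KD from Hdac6 KD. There, 9 were called, all lower in double KD (22.0%, where 10.1% of all genes were called, 4.73% lower), 6 of them spindle genes. Gpsm2 differed by -0.82 ± 0.09 (SE, adjusted p = 0.0128), Plk4 by -0.56 ± 0.11 (SE, adjusted p = 0.0471) and Nusap1 by -0.54 ± 0.09 (SE, adjusted p = 0.0324). The count was 6 without control KD A, 2 without control KD B, 5 without Tip60 KD A or B, 0 and 1 without Hdac6 KD A and B, and 1 without double KD A or B. Gpsm2 lost its call without Hdac6 KD A (adjusted p = 0.105), and Plk4 and Nusap1 theirs without control KD B or any 1 of the Hdac6 KD and double KD arrays. A smaller share of all genes was also called in each fit without 1 array. The count of members called was 20 with the slide block (29.4% of all genes).

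Between Tip60 KD and Hdac6 KD, 17 members were called, 15 lower and 2 higher in Tip60 KD, where 23.5% of all genes were called, 11.3% lower. By step, 5 entry, 6 spindle, 1 checkpoint and 5 exit genes were called. Gpsm2 differed by -1.07 ± 0.09 (SE, adjusted p = 0.0031), Kif11 by -0.61 ± 0.11 (SE, adjusted p = 0.0175) and Birc5 by -0.60 ± 0.12 (SE, adjusted p = 0.0274), while Cdc25b and Kif2c were the members higher in Tip60 KD. The count was 11 and 9 without control KD A and B, 10 and 5 without Tip60 KD A and B, 5 and 7 without Hdac6 KD A and B, and 14 without double KD A or B. Kif11 lost its call without Hdac6 KD A (adjusted p = 0.102), Birc5 without Tip60 KD B or Hdac6 KD A (adjusted p = 0.134 and 0.143) and Cdc25b in every such fit but that without control KD A. Every fit without 1 array also called a smaller share of all genes than the main fit. With the slide as a block 25 members were called (41.5% of all genes). The dimmer Birc5 features differed by -0.11 and 0.03 in limma (adjusted p = 0.518 and 0.983 over all features), so that the Birc5 call rests on its brightest feature.

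Whether the effect of Tip60 KD itself differed in cells also depleted of Hdac6 was tested as an interaction, the log2 change between double KD and Hdac6 KD minus that between Tip60 KD and control KD. It was called for 4 members (9.76%), where 22.0% of all genes were called, so that the share was below that of all genes in this fit. The share depended on the setting. It was above that of all genes with quantile normalisation (11 of 41 members, beside 21.1%) and with a trend on signal level removed (11, beside 20.9%). It was below with normexp background correction (0, beside 1.19%) and the authors' normalised values (0, beside 2.82%). With the slide as a block, 24 of the 41 members were called, a larger share than the 47.1% of all genes. Pttg1 fell by 1.12 between control KD and Tip60 KD but lay at -0.20 (adjusted p = 0.564) between Hdac6 KD and double KD, an interaction of 0.92 ± 0.20 (SE, adjusted p = 0.0378). Prc1 went from -0.70 to -0.12 (adjusted p = 0.651), an interaction of 0.58 ± 0.15 (SE, adjusted p = 0.0546). The increases of Cdc25b and Kif2c in Tip60 KD (0.70 and 0.61) stood at 0.10 and -0.01 on the Hdac6 KD background, with interactions of -0.60 ± 0.14 (SE, adjusted p = 0.0441) and -0.62 ± 0.12 (SE, adjusted p = 0.025). For Gpsm2 the effects were -1.08 and -0.82, with an interaction of 0.27 ± 0.12 (SE, adjusted p = 0.219, or 0.0354 with the slide as a block). The call of Kif2c was lost without control KD B (adjusted p = 0.117), and that of Pttg1 without control KD A or any 1 of the Hdac6 KD and double KD arrays (adjusted p = 0.102 to 0.119). Cdc25b lost its call without control KD A or B, Tip60 KD A, Hdac6 KD B or double KD A, and Prc1 without control KD A or B, Tip60 KD B, Hdac6 KD A or B or double KD A. In each fit without 1 array, fewer members had this interaction called than in the main fit, and a smaller share of all genes as well.

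**Figure D4:**
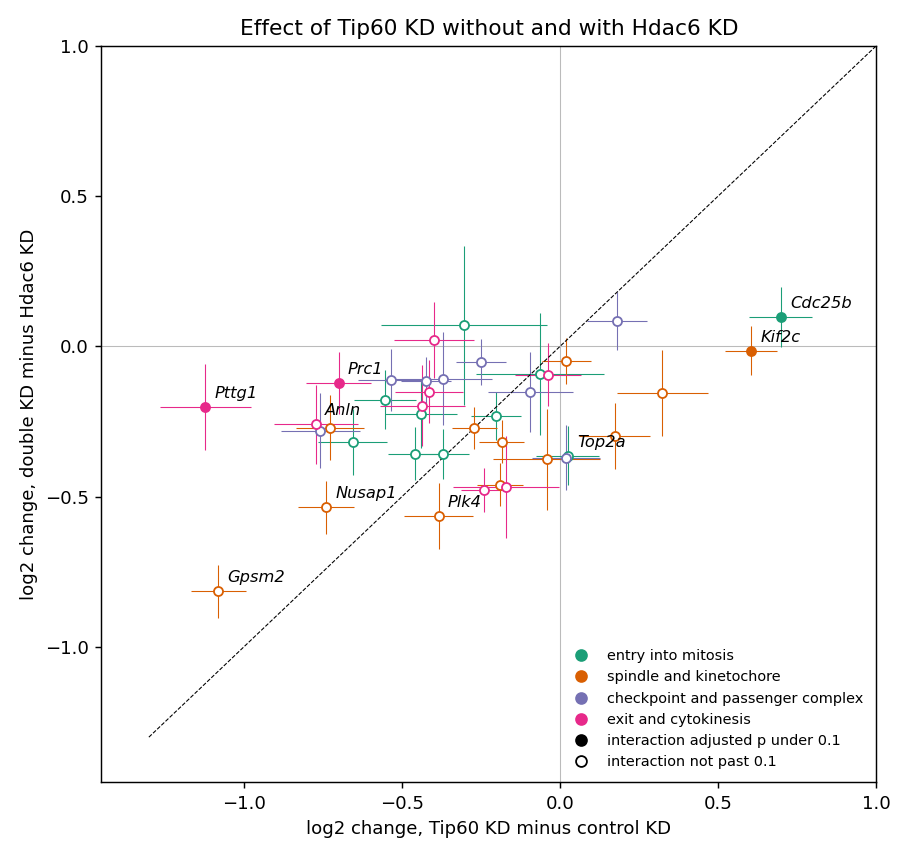
Log2 change ± SE of Tip60 KD against control KD (horizontal) and of double KD against Hdac6 KD (vertical) for the 39 members with no array at the floor, coloured by step; filled points have an interaction at an adjusted p under 0.1, and the dashed line marks equal effects. Pttg1 and Prc1 lie far left but near 0 vertically, Kif2c and Cdc25b far right but near 0 vertically, and Gpsm2 lies near the line at -1.08 and -0.82.

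Members with several features were compared feature by feature, since the brightest stands for the gene, with adjusted p taken over all features that passed. Of the 41, 28 had 1 feature, 8 had 2 and 5 had 3. Mad2l1 (-0.37 in Tip60 KD, -0.10 in Hdac6 KD) had dimmer features that read 0.73 and 0.33 in Tip60 KD (adjusted p = 0.0217 and 0.343) and 1.00 and 0.78 in Hdac6 KD (adjusted p = 0.0129 and 0.0619), against the direction of the brightest one. Ccnb1 showed the reverse case in double KD, where its dimmer features fell by 0.48 and 0.51 on the log2 scale (adjusted p = 0.00968 and 0.0154) and the brightest gave -0.11. In Tip60 KD these dimmer features read -0.001 and 0.04, as Top2a did not fall there either. Between Tip60 KD and double KD they differed by -0.48 and -0.56 in limma (adjusted p = 0.0632 and 0.0682), where the brightest gave 0.09. A second Cdca8 feature read -0.14 in Tip60 KD (adjusted p = 0.23) but -0.37 in Hdac6 KD and -0.55 in double KD (adjusted p = 0.0224 and 0.00629). Between Tip60 KD and double KD it differed by -0.41 (adjusted p = 0.0741), where the brightest gave -0.01. A second Ube2c feature fell in Tip60 KD too (-0.25, adjusted p = 0.0483), and in Hdac6 KD it read 0.14 (adjusted p = 0.264). In double KD it fell by 0.38 on the log2 scale (adjusted p = 0.0162), where the brightest did not pass the test (-0.16).

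Genes of the same steps outside the list, counted the same way in Tip60 KD, are given beside the shares of all genes (39.7% called, 20.0% lower). Of 20 other entry regulators, 13 were called, 12 lower, with a median of -0.41 (65.0% called, 60.0% lower). Lin54 (-0.71) and Lin37 (0.70), subunits of the complex that binds CHR elements, moved in opposite directions, and Arpp19, an inhibitor of a phosphatase that opposes Cdk1, fell by 0.70. In condensin, which compacts mitotic chromosomes, 4 of 8 genes fell and none rose (median -0.34), led by Ncapd2 (-1.16) and Smc4 (-0.99). Among 37 other spindle and kinetochore genes, 13 fell (35.1%) and 5 rose (median -0.17), with Dsn1 (-0.78) and Kif18a (-0.70) lower and Cenpn (0.92) higher. Other cytokinesis genes included 3 that fell of 12, a share (25.0%) near that of all genes, with Aurkc at -0.97. In double KD these lists had 10 genes of 20 called (8 lower) among the entry regulators, 3 (all lower) in condensin, 15 (13 lower) among spindle and kinetochore genes and 3 (all lower) of cytokinesis, which is 37.5% of condensin, 40.5% of the spindle and kinetochore list and 25.0% of cytokinesis beside 32.8% of all genes. Hdac6 KD gave counts of 5 (3 lower), 3 (all lower), 13 (9 lower) and 3 (2 lower), which is 25.0%, 37.5%, 35.1% and 25.0% beside 28.9% of all genes.

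Checkpoint, anaphase-promoting complex and replication genes outside the list held calls in both directions in Tip60 KD. Of 17 other checkpoint and cohesion genes, 5 rose and 4 fell (52.9% called, median -0.09), among them Kntc1 (-0.61), Zw10 (0.56) and Trip13 (0.54). In the anaphase-promoting complex, 6 of 15 tested genes rose and 3 fell (60.0% called, median 0.14), with Cdc23 at 0.58 and Anapc13 at 0.41. DNA replication genes split into 7 lower and 5 higher, Rfc4 (-1.02) and Rrm2 (-0.82) against Rfc3 (0.78), with 12 of 24 called and a median of -0.06. Of 9 tested p53 targets that act in the cell cycle, 6 fell (66.7%, beside 20.0% of all genes) and 1 rose, with Ccng1 at -1.79, Plk2 at -1.50 and Gadd45g at -1.11. The counts in double KD were 5 of the checkpoint and cohesion genes (4 higher), 2 of the anaphase-promoting complex (1 higher), 7 of replication (6 lower) and 5 of the p53 targets (all lower), which is 29.4%, 13.3%, 29.2% and 55.6% beside 32.8% of all genes. In Hdac6 KD they were 6 (5 higher), 5 (3 lower), 5 (3 higher) and 6 (5 lower), which is 35.3%, 33.3%, 20.8% and 66.7% beside 28.9% of all genes.

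Markers of ESCs were present on every array, and markers of other lineages were detected in part. The 10 ESC markers summed to 336 to 339 times the 75th percentile in control KD, 336 to 342 in Tip60 KD, 324 to 329 in Hdac6 KD and 341 to 362 in double KD. For 6 neural markers the sums were 2.57 to 2.75, 4.79 to 5.04, 2.99 to 3.30 and 4.45 to 4.72 in the same order, above control KD in every knockdown. In Tip60 KD 2 of the 6 were called, both higher (33.3%, beside 39.7% of all genes), with Tubb3, a neuronal tubulin, at 1.96. Of 8 fibroblast markers, Col1a2, Postn and Dcn did not pass the filter and the other 5 summed to 2.58 to 2.93, 3.16 to 3.67, 2.29 to 2.42 and 3.24 to 3.54. Of 6 trophectoderm markers, 2 passed (0.526 to 0.557, 0.691 to 0.771, 0.483 to 0.552 and 0.524 to 0.593), and of 6 primitive endoderm markers 2 (at most 0.65 in any group), while Cdx2, Elf5, Hand1, Gata3, Gata6, Foxa2, Sox7 and Afp did not. The part of these shifts in the changes of the mitotic genes was not tested. The members were themselves higher on the first slide than on the second in each group, by a median of 0.0936 to 0.137 on the log2 scale, beside -0.00397 to 0.0255 over all genes.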

How the data were processed

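Total RNA of the 8 samples was labelled with Cy3 and hybridised to 1-colour Agilent mouse arrays. Per the file headers, the deposited intensity values were extracted with Agilent Feature Extraction 10.7.1.1, which subtracted background and a spatial trend from each spot (43020 non-control spots, placed on mm9), 1 array per file. A table of log2 values that the authors normalised between arrays by a method not given in the sources used here served as an alternative only.

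Processed intensities were divided by the 75th percentile of their array, raised to a common floor of 0.1528 (-2.71 on the log2 scale, 8.862% of values) and put on the log2 scale. Features had to exceed both background and floor on 2 or more arrays, and the feature of highest mean stood for its gene, leaving 18116 genes. Control spots and outlier spots were left out. One limma fit (limma 3.58.1, R 4.3.3) held the 4 groups, with 4 residual and 1.84 prior degrees of freedom, and p-values were adjusted by Benjamini and Hochberg over all genes with a threshold of 0.1, the adjusted p that the study's figure legends give. The scripts were tested on simulated data. The number of arrays limits the precision.

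The replicate letter was also the slide and the scan. Differences between A and B correlated between groups (r = 0.651 to 0.799 over the 6 pairs of groups), so that letters pair the samples, and a fit with the slide as a block was made beside the main one.

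Values on every array were given for 8 core regulators, for the 8 members of largest change among those called in each knockdown, the 3 of largest change in each comparison between knockdowns and in the interaction, and for Gpsm2. Names outside the list are the at most 3 called genes of largest change in each other list. The members and lists were chosen with earlier results of these data known. Alternatives were other background corrections, scalings, floors, filters, ways of joining the features of a gene, thresholds and sets of arrays. No annotation of mm9 was used, so that exons and untranslated regions are not stated. RefSeq promoters (build GRCm38.p6) were searched for letters only.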

Additional observations from a re-analysis of the deposited data

Results flagged for a closer look

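The effect of Tip60 KD differed with and without Hdac6 KD for 4 members, by limma's test of that difference (the change between Hdac6 KD and double KD minus the change between control KD and Tip60 KD). That is 9.76% of the members, below the 22.0% of all genes called in the main fit. For Pttg1 the difference was 0.9196 on the log2 scale (adjusted p = 0.0378) and for Prc1 it was 0.5769 (adjusted p = 0.0546), so that both fell less from Hdac6 KD to double KD than from control KD to Tip60 KD. For Cdc25b it was -0.6017 (adjusted p = 0.0441) and for Kif2c -0.6192 (adjusted p = 0.025), which rose in Tip60 KD by more than from Hdac6 KD to double KD. Kif2c lost this call without control KD B alone, while the other 3 lost it in 5 or 6 of the 8 fits that left out 1 array.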

How the results depend on the processing

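The counts, medians and named genes of the members were recomputed under 23 alternative settings, 8 of which left out 1 array each. A fit of only the arrays compared leaves no alternative for the interaction, and the other gene lists, markers, single features and promoters were not recomputed. Over the named genes and comparisons this gave 2204 values, of which 1681 kept their direction and side of the threshold, 489 kept the direction but no longer passed, 33 newly passed and 1 turned: with the mean of its features in place of the brightest, Ccnb1 between Tip60 KD and Hdac6 KD was at 0.0259 (adjusted p = 0.934). For the counts of members called the order is Tip60, Hdac6 and double KD against control KD, then double against Tip60 KD, double against Hdac6 KD, Tip60 against Hdac6 KD, and the interaction. Normexp background correction gave 13, 0, 5, 0, 0, 1 and 0 (all genes: 14.7%, 6.64%, 8.48%, 0%, 0.264%, 4.91% and 1.19%). Scaling to the median gave 5, 0, 4, 0, 0, 0 and 0, with 14, 1, 17, 1, 4, 3 and 1 at an unadjusted p under 0.05 in limma, and moved the median change of all genes from 0.06, 0.03 and 0.05 to -0.11, -0.09 and -0.17 in the knockdowns against control KD, where the members' medians were -0.52, -0.25 and -0.64. With arrays scaled to their median, 10.2%, 1.57%, 4.68%, 0%, 0.00563%, 0.495% and 0% of all genes were called. The authors' normalised values gave 15, 1, 10, 0, 0, 6 and 0 (all genes: 16%, 7.3%, 8.86%, 0%, 0.331%, 5.43% and 2.82%). The same background on every array gave 6 in Hdac6 KD and 1, 5 and 11 between knockdowns (all genes: 26.1%, 1.98%, 7.99% and 21.2%). A lower floor gave 1 in Hdac6 KD, 0, 1 and 5 between knockdowns and 0 for the interaction (all genes: 11.3%, 0%, 0.647%, 6.37% and 3.88%). Missing values in place of the floor gave 3, then 0, 1 and 7, and 2 (all genes: 17.1%, 0%, 1.35%, 8.57% and 10%). Only the arrays compared in each fit gave 0, 0 and 7 between knockdowns (all genes: 0%, 0% and 13.3%). A threshold of 0.05 gave 5 in Hdac6 KD and 0, 5 and 9 between knockdowns (all genes: 20.7%, 0.359%, 5.24% and 16.4%). Quantile normalisation gave 11 for the interaction (all genes: 21.1%).

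With the slide, and so the replicate letter, as a block the counts were 33, 20, 34, 14, 20, 25 and 24 (all genes: 60.8%, 52.9%, 55.4%, 26.2%, 29.4%, 41.5% and 47.1%). Some alternatives were chosen after seeing the data. Removal of a trend on GC content gave 7 in Hdac6 KD and 0 and 11 for Tip60 KD against double KD and against Hdac6 KD (all genes: 26.3%, 0.0166% and 20.1%). With the replicate block as well it gave 23 in Hdac6 KD, 32 in double KD, 13, 21 and 26 between knockdowns and 23 for the interaction (all genes: 51.3%, 54.2%, 23.7%, 29.8%, 40.6% and 44.9%). Removal of a trend on signal level gave 11 for the interaction (all genes: 20.9%). Leaving out 1 array gave 16 to 23, 0 to 9, 12 to 20, 0, 0 to 6, 5 to 14 and 1 to 3. In every comparison, each fit without 1 array also called a smaller share of all genes than the main fit. The counts not given stayed within 1.5 times those of the report. The cause of these differences was not tested. Dim features set the depth limit: Aurkb and Cenpf touched the floor, and 5 further features of members lay at it and were not used.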
